A study of Homo sapiens with 15 samples.

Results

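The chromatin around MYC was followed across a 2.3 Mb window of chromosome 8 (hg19), from −248.3 kb to 2051.7 kb relative to the MYC start, through PVT1 and the gene desert downstream. The members were chosen by position: every peak of the 15 deposited lists that overlapped the window was taken, and no measured value entered the choice. They numbered 1181 of the 1069283 peaks on the autosomes and X. Merging peaks that overlapped gave 162 regions in the window of 120992 in all.

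MYC encodes a transcription factor that drives ribosome production, metabolism and cell division, and its own transcription depends on enhancers that differ between tissues. Many lie in the gene desert after MYC, past PVT1, a long non-coding RNA gene that starts shortly downstream and whose promoter is known to compete with MYC for enhancers. In blood cells, enhancers far beyond PVT1 are known to contact the MYC promoter. An active enhancer or promoter is open to nucleases, and the peaks mark such open sites. Enhancer activity and MYC RNA were not measured here, so the regions below are called sites. In the RefSeq table for GRCh38.p14, used for names and order only, CASC11 lies next to MYC upstream, and PVT1, LINC00824, LINC00976, LINC00977, CCDC26 and GSDMC follow downstream in that order. No site was assigned to an exon, an intron or a gene, since no hg19 annotation was used.

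All libraries were made from K562, a human erythroleukemia cell line, transduced with a lentivirus that carries puromycin resistance and selected with puromycin. The 5 groups had 3 libraries each. One group carried dCas9-KRAB with no gRNA, and the others carried either dCas9 or dCas9-KRAB together with either the gRNA Cr4 or the gRNA Cr10. dCas9 is a Cas9 that binds DNA through a guide RNA without cutting it, and KRAB is a repressor domain of zinc finger proteins. The gRNAs were aimed at HS2, an enhancer of the beta-globin genes on another chromosome, so MYC was not a target. One annotation field names HS2 as the target in the group without a gRNA too, and groups were taken from the titles and design text. Neither untransduced cells nor dCas9 without a gRNA were among the groups. The labels do not say that the 3 libraries of a group came from separate cultures, and p-values then measure only the spread between these libraries, which may be technical.

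The deposited lists held between 53098 and 94677 peaks. In the window they held between 51 and 133 peaks (median 70), with the fewest in dCas9 Cr10 replicate 1, the shortest list, and the most in dCas9 Cr10 replicate 3, the longest. Each list was therefore shortened to its 53098 strongest peaks by the authors' fold, the enrichment of a peak over its local background. The window then held between 43 and 57 peaks per library (median 49). By group these were 49.3 ± 7.09 with no gRNA, 50.7 ± 4.04 in dCas9 Cr4, 48.0 ± 3.61 in dCas9 Cr10, 50.3 ± 5.86 in dCas9-KRAB Cr4 and 50.3 ± 4.04 in dCas9-KRAB Cr10 (mean ± SD, n = 3 each), and all groups overlapped. The value of a site in a library is its rank percentile by fold in the shortened list, running from 100 (strongest) down to 0 where the list had no peak. The total number of reads is not given in the sources used here.

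The shortened lists placed 92 regions in the window. Of these, 26 (28.3%) had a peak in all 15 lists, against 34007 of 78352 regions (43.4%) over all chromosomes. Another 39 were found in 3 to 14 lists, 8 in 2 and 19 in 1. The window held 40 regions per Mb against 26.6 over all chromosomes, while regions found in every list came at 11.3 per Mb against 11.5. The window was thus denser in sites that recurred in part of the lists, but not in sites found in all of them. The 26 shared sites also ranked lower, with a median percentile of 48.9 against 66.0 for all regions found in every list. These shares and medians are descriptions of the window and were not tested.

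In the shortened lists the shared sites lay on one side of the gene. None of the 26 lay more than 5 kb upstream, 1 lay at the start and 25 lay downstream, 9 of them beyond 1500 kb. The upstream side held 5 regions in all, of which the most recurrent was the site at −117.5 kb (128630689 to 128630998), found in 14 shortened lists at a mean percentile of 29.7 ± 15.2 (SD, n = 15) and in all 15 deposited lists. The site at −10.1 kb (128737955 to 128738427) was in 13 shortened lists, at 24.0 ± 11.7, and the site at −162.5 kb (128585665 to 128585959) in 2. Between 5 and 400 kb downstream there were 28 regions, 13 of them in every list. From 400 to 1600 kb there were 23 regions over a stretch 3 times as long, and 4 were in every list. The next stretch held 22 regions, 6 of them in every list, and the last 100 kb or so held 11, with 2 in every list. The open chromatin therefore formed a dense block within 400 kb downstream of MYC and another at the far end, with sparse sites between.

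**Figure D1:**
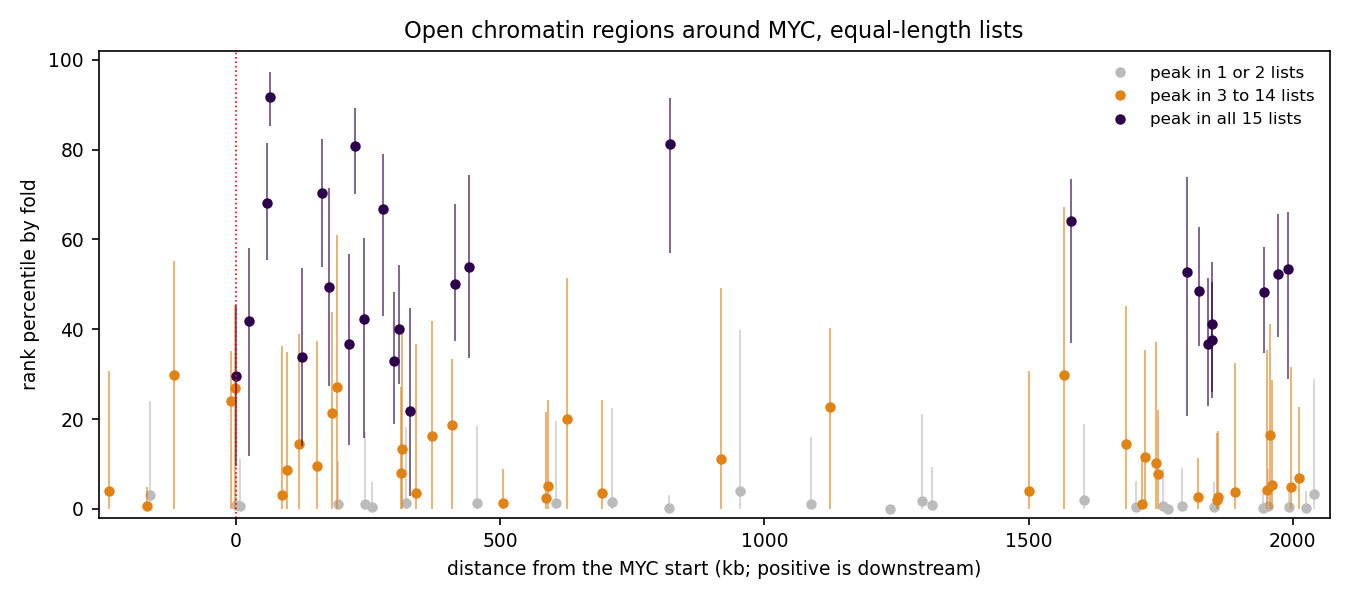
Sites of the MYC window by distance from the MYC start in kb (x axis) and mean rank percentile by fold over 15 libraries (y axis). The 26 sites found in every shortened list lie at or downstream of the start, and the widest stretch without one is 759 kb.

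The stretch between the blocks was wide. Sites found in every list were 759 kb apart between +820.8 kb and +1580.8 kb from the MYC start, and 379 kb apart between +441.0 kb and +820.8 kb. No shortened list held a peak over 184 kb between +1317.2 kb and +1501.7 kb, or over 135 kb between +953.1 kb and +1088.5 kb. Inside the widest stretch, the site at +1123.3 kb (129871476 to 129871756) was found in 14 lists and the site at +1567.5 kb (130315627 to 130316055) in 14.

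The MYC start itself carried a peak in every library, at chromosome 8, 128748030 to 128748797, with summits within 21 bp of each other. It ranked low by fold in the shortened lists. With no gRNA its percentiles were 35.7, 17.5 and 32.6. In dCas9 Cr4 they were 44.9, 27.9 and 28.7, and in dCas9 Cr10 they were 23.9, 25.2 and 9.50. In dCas9-KRAB Cr4 they were 40.6, 45.3 and 12.8, and in dCas9-KRAB Cr10 they were 44.4, 25.4 and 29.5. Every library placed it in the weaker part of its shortened list. The cut removed the weakest peaks, so its percentile was higher in the longer deposited lists. In the shortened lists 24 of the 26 shared sites had a higher mean percentile than the start, at 29.6 ± 11.3 (SD, n = 15).

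The low rank went with a high local background rather than few fragments at the summit. Fold and p-value together give the pileup, the number of fragments stacked at the summit, and the background, the number the caller assumed there. At the MYC start the pileup ran from 64 to 182 (median 118) and the background from 11.0 to 33.5 (median 18.6). The median background over all peaks of a library was between 4.12 and 10.2. Ranked by pileup, the start stood at percentile 83.7 ± 3.21, and ranked by background at 97.8 ± 0.820 (SD, n = 15 each). Of the other 25 shared sites, 1 had a higher mean percentile by pileup, at +224.4 kb, and none had a higher one by background, the next being +309.1 kb at 90.8. The authors' fold at the start was between 5.17 and 7.15, and the −log10 q-value between 25.0 and 74.4. The local background of peaks over the whole window was 0.920 to 1.16 times that of all peaks of the library (median 1.09), so most of the window did not share the level at the start.

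**Figure D2:**
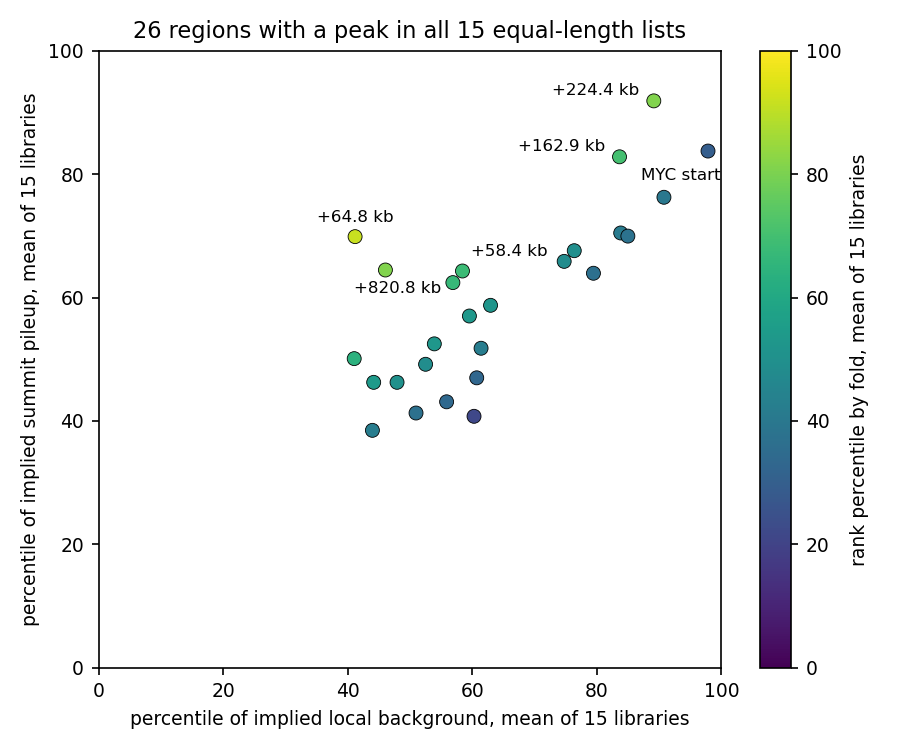
Mean percentile of the implied local background (x axis) and of the implied summit pileup (y axis) over 15 libraries, for the 26 sites found in every list, coloured by rank percentile by fold. The MYC start lies farthest right, at 97.8 by background and 83.7 by pileup, with a fold rank of 29.6.

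A pair of further sites lay within 2 kb upstream of the start. The site at −1.9 kb (128746213 to 128746589) had a peak in 14 shortened lists and in all 15 deposited ones, with summits within 13 bp. Its mean percentile was 27.0 ± 12.4, its pileup ran from 77 to 173 (median 114), and it stood at percentile 82.1 by pileup and 97.5 by background. The site at −0.7 kb (128747430 to 128747694) was in all 15 deposited lists but in 2 shortened ones, and stood at 96.3 by background. Among all regions of the window in the shortened lists, the site at −1.9 kb had the percentiles nearest to those of the start. Its mean absolute difference over the 15 libraries was 8.36 points, followed by +213.7 kb at 9.80 and +329.6 kb at 10.3. The measure compares levels and does not show that sites varied together. Peaks within 2 kb of each other can share fragments and local background.

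The strongest site by fold was at +64.8 kb (128812895 to 128813461). Its percentiles were 87.1, 92.1 and 97.3 with no gRNA, 87.4, 88.9 and 97.0 in dCas9 Cr4, and 94.0, 90.1 and 94.98 in dCas9 Cr10. They were 88.4, 94.1 and 94.8 in dCas9-KRAB Cr4, and 93.0, 90.4 and 85.3 in dCas9-KRAB Cr10. All 15 values lay between 85.3 and 97.3, the groups overlapped, and the SD of 3.73 was the smallest of the 26 shared sites. Its median fold was 13.04 against 6.19 at the start. Its median pileup of 81 was below the 118 at the start, and its mean background percentile was 41.2. The site at +58.4 kb (128806462 to 128806929) shortly before it had a mean percentile of 68.1 ± 6.94 and a median pileup of 70.

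The site with the most fragments was at +224.4 kb (128972350 to 128973080). Its percentiles by fold were 83.5, 80.9 and 88.8 with no gRNA, 74.2, 83.9 and 80.8 in dCas9 Cr4, and 89.4, 76.6 and 76.2 in dCas9 Cr10. They were 79.3, 86.9 and 75.6 in dCas9-KRAB Cr4, and 70.2, 78.4 and 89.0 in dCas9-KRAB Cr10. The groups overlapped. Its pileup ran from 113 to 228 (median 148), a mean percentile of 91.9, on a background percentile of 89.2. The site at +162.9 kb (128910654 to 128911950) was the widest, at 1297 bp, with a mean percentile of 70.2 ± 7.55 and a median pileup of 113. These sites, unlike the start, kept a high rank on a high background. Weaker shared sites of this block included +24.9 kb (128772697 to 128773534), at 41.9 ± 14.3, and +329.6 kb (129077777 to 129078164), at 21.7 ± 12.8, the lowest of the 26. The shared sites at +123.9, +175.8, +241.8, +278.5 and +299.3 kb had mean percentiles between 32.9 and 66.8.

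In the sparse stretch 4 sites were found in every list. The site at +820.8 kb (129568901 to 129569330) was the strongest, with a mean percentile of 81.2 ± 9.70, a range of 57.0 to 91.5 and a median pileup of 66. The site at +1580.8 kb (130328823 to 130329300) had a mean percentile of 64.0 ± 9.43 and the lowest background percentile of the 26, at 41.0. The sites at +414.1 kb (129162252 to 129162628) and +441.0 kb (129188852 to 129189758) had 50.02 ± 7.997 and 53.9 ± 11.6. Though few, these sites ranked higher on average (62.3) than the 13 shared sites of the near block (52.0).

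At the far end, 1600 kb and more from the start, 8 sites were found in every list, and none was among the strongest of the window. They were the sites at +1799.9 kb (130547845 to 130548493), at 52.8 ± 12.9, and at +1821.9 kb (130570009 to 130570414), at 48.6 ± 7.99, followed by +1838.9 kb at 36.8. The pair at +1846.2 kb (130594113 to 130594815) and +1847.2 kb (130595147 to 130596120) stood about 1 kb apart, at 41.2 and 37.7, with background percentiles of 83.8 and 85.0. The last were at +1946.1 kb (130694125 to 130694678), at 48.3 ± 7.98, at +1972.1 kb (130720099 to 130720972), at 52.2 ± 7.27, and at +1990.4 kb (130738516 to 130739125), at 53.4 ± 8.66. Among them the site at +1956.9 kb (130704987 to 130705695) was in 12 lists, at 16.5 ± 13.5. Each of the 8 shared sites outranked the MYC start by fold, and each lay below it by pileup.

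**Figure D3:**
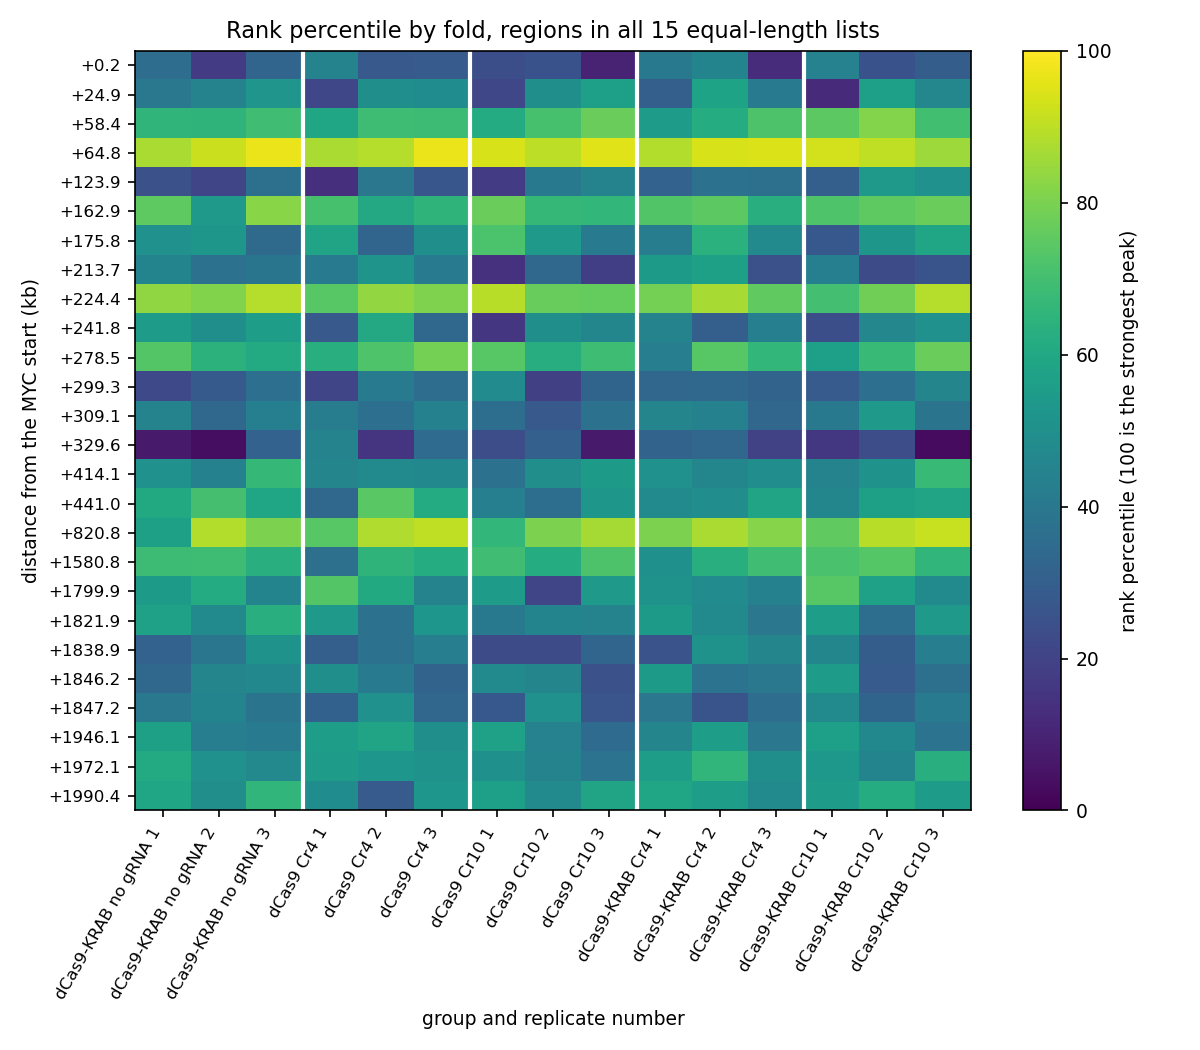
Rank percentile by fold (colour, 0 to 100) of the sites found in every list, ordered by distance from the MYC start, in each of the 15 libraries grouped by treatment. The site at +64.8 kb is high in every shortened list, and the start is in the weaker part of each.

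Whether the dCas9-KRAB repressor with a gRNA changed the chromatin of MYC was examined first at its start. Across the groups, the mean percentile at the start was 33.8 ± 9.61 in dCas9 Cr4, 33.1 ± 10.0 in dCas9-KRAB Cr10, 32.9 ± 17.5 in dCas9-KRAB Cr4, 28.6 ± 9.77 with no gRNA and 19.5 ± 8.71 in dCas9 Cr10 (SD, n = 3 each). Neighbours in this order differed by less than the larger of their SDs. Its ends, dCas9 Cr4 and dCas9 Cr10, differed by more than either SD and were not among the comparisons. With dCas9-KRAB and either gRNA (6 libraries) the start had 33.0 ± 12.8 and in the other 9 libraries 27.3 ± 10.3 (SD). The difference of 5.67 points had p = 0.352 in an exact two-sided permutation test over 5005 splits, and a 95% interval from limma of −9.11 to 20.4. Within replicate numbers the difference was 7.65, 11.8 and −2.45 points for numbers 1, 2 and 3. Ranked by pileup, the same groups had 84.3 ± 2.51 and 83.4 ± 3.72, a difference of 0.842 points (exact permutation p = 0.634). Neither measure separated the groups beyond the spread between libraries.

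**Figure D4:**
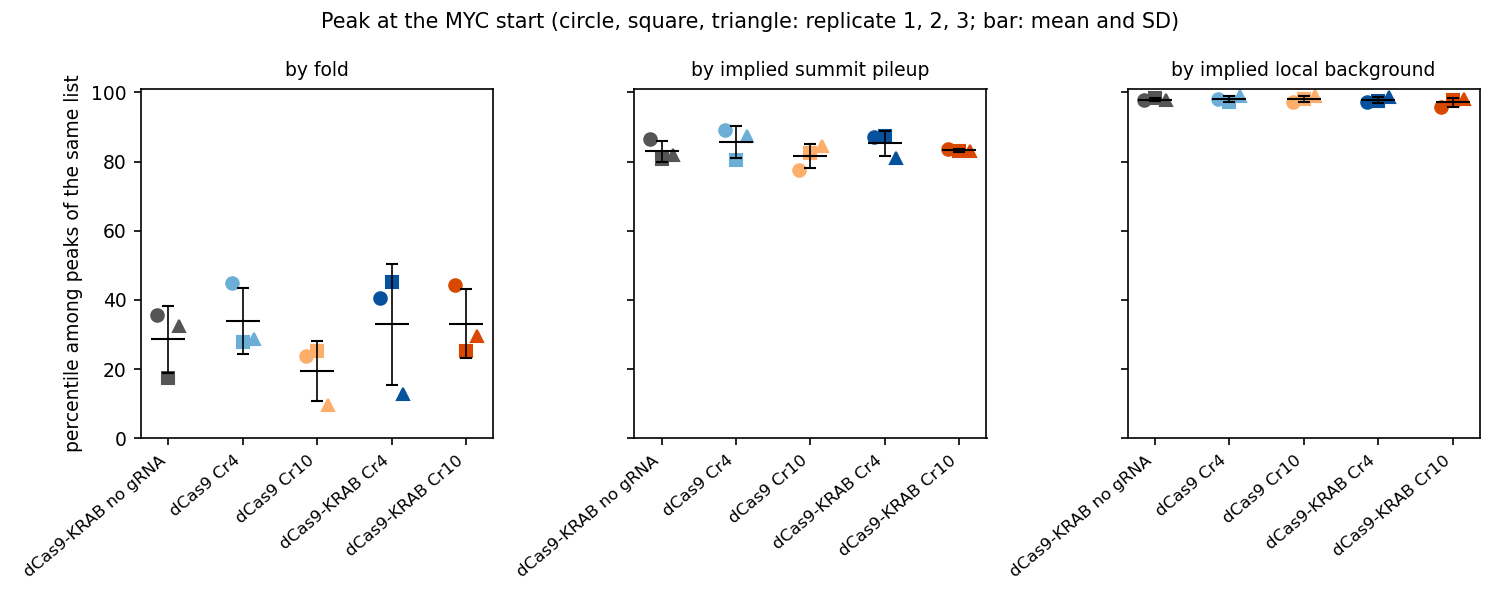
The peak at the MYC start in each library by group, with its rank percentile by fold and its rank percentile by implied summit pileup on the y axes. The fold ranks lie between 9.50 and 45.3 and the pileup ranks between 77.6 and 89.1, and dCas9 Cr10 holds the lowest fold rank.

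In 1 of the 8 comparisons the values by fold at the start did not overlap. In dCas9-KRAB Cr10 they were 25.4 to 44.4 and in dCas9 Cr10 9.50 to 25.2, a difference of 13.6 points (SE 10.8, 95% interval −9.33 to 36.4, limma adjusted p = 1.00). The lowest value of one group lay next to the highest of the other, and the interval took in 0. In this comparison 4 of the 65 regions of the window tested below did not overlap. The share without overlap over all regions was not counted.

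Over the window, 65 of the 92 regions had a peak in at least 3 shortened lists and were tested with all 62858 such regions by limma. None of the 65 passed an adjusted p of 0.05 in any of the 8 comparisons between groups, and none of the 62858 did either (0% called in each). At an unadjusted p under 0.05, the pooled comparison of dCas9-KRAB with a gRNA against the other 9 libraries named 2 of 65, against 1.72% of all regions. dCas9-KRAB Cr10 against dCas9 Cr10 named 1 (2.50% of all) and dCas9-KRAB Cr4 against dCas9-KRAB Cr10 named 1 (2.65%). The others named 0 of 65: dCas9-KRAB Cr4 (2.43%), dCas9-KRAB Cr10 (2.81%), dCas9 Cr4 (1.39%) and dCas9 Cr10 (2.97%) against no gRNA, and dCas9-KRAB against dCas9 with Cr4 (1.25%). These shares were low in the window as in all regions. In the whole deposited lists, none of the 162 regions was present in every library of one group and absent from every library of the other, in any of the 8 comparisons. Over all 120992 regions the shares present in the first group only, and then in the second only, were 0% and 0% in the pooled comparison. Against no gRNA they were 0.0917% and 0.0628% for dCas9-KRAB Cr4, 0.0587% and 0.217% for dCas9-KRAB Cr10, 0.0165% and 0.0314% for dCas9 Cr4, and 0.0388% and 0.0405% for dCas9 Cr10. For dCas9-KRAB against dCas9 they were 0.00909% and 0.150% with Cr4 and 0.00579% and 0.153% with Cr10, and for dCas9-KRAB Cr4 against dCas9-KRAB Cr10 they were 0.298% and 0.0339%.

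The directions over the 65 regions were mixed, and they depended on the length of the lists. In the shortened lists and the pooled comparison 37 had a higher mean with dCas9-KRAB and a gRNA and 28 a lower one, with a median difference of 1.91 points against 0.114 over all regions. The widest imbalance was in dCas9-KRAB Cr10 against dCas9 Cr10, with 43 higher and 19 lower and a median of 3.16 points against 0.151. dCas9 Cr10 against no gRNA had 23 higher and 38 lower, with a median of −1.73 points against −0.0527. These comparisons share the dCas9 Cr10 libraries. dCas9 Cr4 against no gRNA had 25 higher and 39 lower, with a median of −1.91 points against 0. In the whole deposited lists, where 107 regions of the window were tested, the sign of the median turned in each of the 8 comparisons. There the pooled comparison had 44 higher and 63 lower, with a median of −0.965 points against −1.05 over all regions. dCas9-KRAB Cr10 against dCas9 Cr10 had 44 higher and 62 lower (median −1.44 against −1.86), dCas9 Cr10 against no gRNA 59 higher and 48 lower (1.22 against 0.0975), and dCas9 Cr4 against no gRNA 67 higher and 39 lower (2.62 against 1.46). No direction of the window as a whole is therefore read from these counts.

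**Figure D5:**
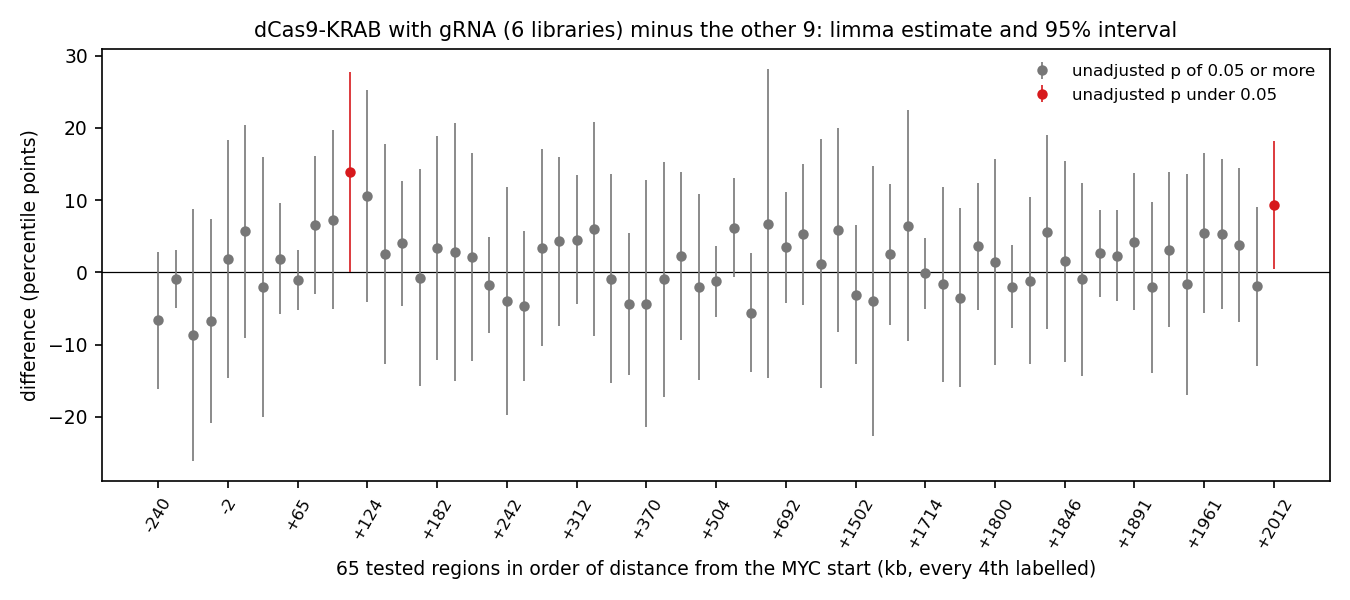
Difference in mean rank percentile (y axis, 6 dCas9-KRAB libraries with a gRNA minus the other 9) with its 95% interval from limma, for the 65 tested regions. Regions are evenly spaced in order of distance from the MYC start (x axis, some labelled in kb), so the spacing does not show distance. The intervals of 2 regions, at +118.3 kb and +2012.5 kb, leave out 0, and no region passed the adjusted threshold.

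In the pooled comparison the regions with the lowest p were weak sites missing from part of the lists. At +2012.5 kb (130760660 to 130760916) the percentile was between 0 and 22.7 with dCas9-KRAB and either gRNA (6 libraries) and between 0 and 17.6 in the other 9, a difference of 9.31 points (SE 4.17, 95% interval 0.460 to 18.2, limma adjusted p = 1.00). At +118.3 kb (128866440 to 128867022) it was 37.1, 3.47 and 17.3 in dCas9-KRAB Cr4 and 39.0, 9.11 and 31.0 in dCas9-KRAB Cr10. It was 22.2, 0 and 0 with no gRNA, 18.4, 21.7 and 0 in dCas9 Cr4 and 0, 7.67 and 10.2 in dCas9 Cr10. The pooled difference there was 13.9 points (SE 6.51, 95% interval 0.0854 to 27.7, limma adjusted p = 1.00). At both sites the groups overlapped.

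Between single groups, the site at +1123.3 kb had percentiles of 39.4, 40.4 and 29.4 in dCas9-KRAB Cr10 and 8.35, 0 and 24.4 in dCas9 Cr10. Groups did not overlap at 4 of the 65 regions in this comparison, this site among them, and the share over all regions was not counted. The difference was 25.5 points (SE 10.3, 95% interval 3.66 to 47.3, limma adjusted p = 1.00). The test of whether the KRAB effect differed between Cr4 and Cr10 gave −28.0 points there (95% interval −58.8 to 2.88, limma adjusted p = 1.00), the lowest p of the 65 in that test. With no gRNA this site had 35.2, 28.1 and 31.5, so dCas9 Cr10 lay below no gRNA too, without overlap. It had 37.7, 3.75 and 14.6 in dCas9 Cr4 and 1.70, 26.7 and 20.0 in dCas9-KRAB Cr4. The site was also among the lowest p in dCas9 Cr10 against no gRNA and in dCas9-KRAB Cr4 against dCas9-KRAB Cr10. The site at +58.4 kb had 55.4, 62.1 and 72.2 in dCas9-KRAB Cr4 and 74.6, 81.5 and 69.5 in dCas9-KRAB Cr10, a difference of −12.0 points (SE 5.58, 95% interval −23.8 to −0.122, limma adjusted p = 1.00), and the groups overlapped. At +441.0 kb dCas9 Cr10 had 36.2 to 52.9 and no gRNA 59.2 to 70.7, a difference of −19.6 points (SE 9.36, 95% interval −39.5 to 0.316, limma adjusted p = 1.00) between groups that did not overlap. In that comparison 5 of the 65 regions did not overlap, and the share over all regions was not counted. The site at +1990.4 kb had 48.5, 28.9 and 52.6 in dCas9 Cr4 and 59.2, 49.4 and 66.0 with no gRNA, a difference of −14.9 points (95% interval −31.5 to 1.75, limma adjusted p = 1.00), and the groups overlapped.

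The other sites with the lowest p were in 6 or fewer shortened lists. At +591.0 kb (129339186 to 129339494) the percentiles were 6.77, 18.1 and 12.9 with no gRNA, 0 in all 3 libraries of dCas9-KRAB Cr10 and 0, 0 and 4.12 in dCas9 Cr4. The differences from no gRNA were −12.6 points (95% interval −25.3 to 0.107) and −11.2 points (−23.9 to 1.48), each without overlap. Regions without overlap numbered 3 and 1 of the 65 in these comparisons, and the shares over all regions were not counted. At −239.5 kb (128508728 to 128508951) no gRNA had 0, 6.26 and 30.8, and dCas9-KRAB Cr4 had 0 in all 3. At +86.7 kb (128834877 to 128835145) dCas9-KRAB Cr4 had 0, 36.3 and 0, and no gRNA had 0 in all 3, so that 1 library made the difference. At +1857.9 kb (130606029 to 130606293) dCas9-KRAB Cr4 had 7.04, 17.2 and 0 and dCas9 Cr4 1.97, 0.409 and 0. The adjusted limma p was 1.00 at each of these sites.

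Regions over all chromosomes differed with the replicate number, sites of the window among them. This comparison, of the 5 libraries numbered 1 with the 10 numbered 2 or 3, was added after the data had been seen. It called 671 of 62858 regions (1.07%) at an adjusted limma p under 0.05, and 1 of the 65 in the window. The deposited lists of the libraries numbered 1 held between 53098 and 68399 peaks, and the others between 61017 and 94677. At an unadjusted p under 0.05 it named 15 of the 65, of which 8 were higher and 7 lower in the libraries numbered 1, against 18.0% of all regions. In the whole deposited lists it named 18 of 107, of which 0 were higher and 18 lower. The median difference there was −6.30 points in the window and −5.43 over all regions, so both shifted the same way. The share named over all regions in those lists is not given here. No result about the window is read from this count.

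The 1 called site was +820.8 kb. Its percentiles were 57.0, 74.2, 66.4, 80.4 and 75.7 in the libraries numbered 1, in the order no gRNA, dCas9 Cr4, dCas9 Cr10, dCas9-KRAB Cr4 and dCas9-KRAB Cr10. In the other 10 they lay between 80.1 and 91.5. The difference was −15.7 points (SE 2.69, 95% interval −21.4 to −9.96, limma adjusted p = 0.0191). Without dCas9 Cr4 replicate 1 the adjusted limma p was 0.0722, and without dCas9-KRAB Cr10 replicate 1 it was 0.0639, so the call was lost without either library. At +24.9 kb the libraries numbered 1 had 11.8 to 40.2 and the others 41.3 to 58.1, with no overlap and an adjusted limma p of 0.0575. The MYC start was 12.5 points higher in the libraries numbered 1 (SE 6.48, limma adjusted p = 0.324). What the number stands for is not given in the labels, and its part in these values was not tested.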

How the data were processed

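Each library was deposited as one peak list on hg19, in narrowPeak layout. Per the submitters' processing notes, reads were handled with CASAVA 1.3, BWA and bedtools. A peak caller and a threshold were not given in the sources used here. The authors deposited a fold (a ratio over local background), p-values and q-values as −log10, and a score for each peak. The fold is the authors' and ranked peaks within a list.

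From these, each list was ordered by fold over the autosomes and X and shortened to 53098 peaks, and peaks overlapping by at least 1 bp were merged. Regions in at least 3 lists were fitted with limma 3.58.1 (5 group means, mean-variance trend) under R 4.3.3, with two-sided p-values adjusted by Benjamini and Hochberg over all 62858 regions. Pileup k and background λ were solved from fold = (k + 1)/(λ + 1) and the Poisson p-value. A whole number k met the p-value within 0.01 in −log10 p for 100% of peaks in each list. The pooled comparison alone was tried on simulated data, with independent normal values and a drop set at sites of higher mean percentile. That setting had no replicate structure, and the comparisons between single groups were not tried.

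Distances are from the MYC start at 128748300 to the median summit of a site. That position was given with the choice of the window and was not checked against an hg19 annotation. The rule for named sites took those within 5 kb of the start, up to 4 of the highest mean percentile in each distance zone, the 2 lowest p in each comparison and the 3 most like the start. Other sites named (+24.9, +123.9, +175.8, +241.8, +278.5, +299.3, +309.1, +1567.5, +1838.9 and +1847.2 kb) were chosen after their values were seen. The members and lists were chosen with earlier results of these data known. Alternatives covered list length, overlap, filters, limma settings, pileup in place of rank, a replicate block and leaving out each library.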

Additional observations from a re-analysis of the deposited data

Results flagged for a closer look

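Among 34 groups of 6 or 9 libraries checked at some of the named sites, 4 held a library far from the rest, where chance gives about 1 in 20. The groups reuse the same 15 libraries from site to site and pool several treatments, so they are not independent checks. At +162.9 kb, dCas9-KRAB Cr4 replicate 3 had the lowest percentile of the 6 that carried dCas9-KRAB with Cr4 or Cr10, 63.13 against 72.58 for the next. At +414.1 kb, dCas9-KRAB Cr10 replicate 3 was the highest of the same 6, at 67.77 against 50.89. At +1580.8 kb, dCas9 Cr4 replicate 1 was the lowest of the other 9, at 37.01 against 61.83. At +1990.4 kb, dCas9 Cr4 replicate 2 was the lowest of these 9, at 28.87 against 47.83.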

How the results depend on the processing

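All 200 counts of called regions in the window, 8 comparisons under 25 alternatives, stayed at 0. The pooled difference at the MYC start kept its direction and missed the threshold in all 22 alternatives, with exact permutation p from 0.1004 to 0.634, and ranged from 3.22 to 9.70 points without 1 library. Of 367 recomputed differences at named sites, 366 kept direction and side of the threshold. The exception was +1857.9 kb in dCas9-KRAB Cr4 against dCas9 Cr4, at 7.30 points and at −6.42 in the whole deposited lists. The count of window regions called between replicate numbers, 1 as reported, was 2 in the whole deposited lists, 4 on the implied pileup, 2 among regions with a peak in all 15 lists, 2 without the mean-variance trend and 5 with array weights. It ran from 0 to 4 without 1 library: 0 without dCas9 Cr4 replicate 1 or dCas9-KRAB Cr10 replicate 1, and 4 without dCas9 Cr10 replicate 1 or replicate 2. The share called over all regions under each alternative is not given here. A change in this count is therefore not read as a result about the window. The sign of the window's median difference turned in the whole deposited lists in all 8 comparisons. In these lists 36 sites were found in every list, against 26.

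Pairing by replicate number was taken to need a correlation of deviations over 0.1 in every same-numbered pair. This held in 13 of 30 same-numbered pairs (median 0.0735), against 12 of 60 pairs of different numbers (median −0.105), so the libraries were not treated as paired. Pairs numbered 1 lay between 0.0311 and 0.416, and 8 of 15 libraries were closest to one of their own number. With the number as a replicate block, the pooled difference at the start was 5.67 points (exact permutation p = 0.294) and no region of the window was called. The depth of the libraries is unknown, and a site at percentile 0 has no peak in the shortened list, which does not show that it was closed.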
